A study of Mus musculus with 22 samples.

Results

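Ribosome biogenesis and nucleolar genes were examined as a named set of 39 genes, out of 52327 genes in the count table, in β-cells sorted from mouse islets. The set covers transcription of ribosomal RNA (rRNA), its chemical modification and cleavage, and assembly of the ribosomal subunits. Its genes were given by name, and the choice was made with earlier results of these data known. All 39 were present and passed the filter on low counts. The lowest count of a member in any library was 23 and the median was 471.

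All 22 mice were males of mixed background at 3 months of age. Every mouse, controls included, had the genotype GluDTR+, SstDTR htz, PpyDTR htz: a diphtheria toxin receptor in α-cells (glucagon), δ-cells (somatostatin) and γ-cells (pancreatic polypeptide), so that diphtheria toxin (DT) ablates those cells and spares β-cells. Mice were taken 1 month after ablation, after 8 h without food or after that fast and 2 h of refeeding. Controls numbered 5 fasted and 5 refed mice and DT-treated mice 6 fasted and 6 refed mice, with 1 library per mouse. What the control mice received is not stated in the sources used here.

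Ribosomes are built in the nucleolus. RNA polymerase I (Pol I) makes a long precursor, small nucleolar RNA-protein particles (snoRNPs) guide its methylation and pseudouridylation, and large assemblies of factors cut it and fold it with ribosomal proteins into the small and large subunits. Growth signals, among them nutrients and insulin acting through the mTOR kinase and the MYC factors, are textbook regulators of this programme, and β-cells carry a heavy load of protein synthesis because they make insulin.

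Promoter sequence was available for 33 of the 39 genes (RefSeq, GRCm38.p6, 250 bases before to 50 after the start), and a short motif search shows what some of these promoters share. The E-box CACGTG, which MYC and related factors bind, occurred in 7 of the 33 (21.2%), against 1222 of 10502 tested genes with such a sequence (11.6%). It was found in Imp4, Mybbp1a, Nop2, Pes1, Rrn3, Utp20 and Wdr43. CCGGAAGT, the core of many ETS-factor sites, occurred in 8 of the 33 (24.2%) against 962 of 10502 (9.16%), in Ebna1bp2, Gar1, Heatr1, Nhp2, Nip7, Polr1c, Rrn3 and Wdr74. Both strands were searched. Rrn3 was the 1 gene with both motifs, at separate positions. GCATGCGC, the core of NRF1 sites, matched in 0 of the 33 (6.05% of all), the 10-base BANP motif in 0 (1.16%), and CCAAT in 13 (39.4% against 42.6%). The matches describe letters, not binding. The windows below show E-boxes (first 4 lines) and ETS cores (last 4 lines), with the motif in capitals, 5′ to 3′ on the gene's strand. They show that genes that rose with refeeding and Polr1c, which did not, can carry the same letters.
Rrn3, chr16:13780460-13780513, plus strand: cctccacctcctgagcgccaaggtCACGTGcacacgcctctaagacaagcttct
Rrn3, chr16:13780627-13780680, plus strand: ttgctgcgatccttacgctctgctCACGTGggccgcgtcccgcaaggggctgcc
Imp4, chr1:34439684-34439737, plus strand: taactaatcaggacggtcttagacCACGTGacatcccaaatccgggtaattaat
Nop2, chr6:125131799-125131852, plus strand: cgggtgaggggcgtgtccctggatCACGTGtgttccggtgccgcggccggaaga
Gar1, chr3:129831409-129831464, minus strand: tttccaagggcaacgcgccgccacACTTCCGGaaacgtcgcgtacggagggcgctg
Nip7, chr8:107056750-107056805, plus strand: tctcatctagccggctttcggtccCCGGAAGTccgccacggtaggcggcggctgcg
Wdr74, chr19:8735788-8735838, plus strand: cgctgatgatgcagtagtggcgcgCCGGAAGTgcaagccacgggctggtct
Polr1c, chr17:46248056-46248111, minus strand: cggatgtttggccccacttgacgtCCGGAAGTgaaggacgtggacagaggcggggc

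Another shared feature lies inside the genes. Ncl, Nop56, Nop58, Dkc1, Wdr43 and Gnl3, or 6 of 39 (15.4%), enclose at least 1 annotated snoRNA gene on their own strand, against 259 of 13748 tested genes with a position (1.88%). Many snoRNAs are cut from introns of such host genes. The snoRNAs inside these hosts had from 0 to 36 counts over all 22 libraries.

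Libraries held 16584117 to 24988880 counts, and insulin transcripts (Ins1 and Ins2) took 40.3 to 51.1% of the counts in 21 of the 22. Refed DT mouse 13 stood apart with 69.4%, and it had the lowest share of counts in the 39 genes (0.0746%). The other 5 refed DT mice had 0.154 to 0.169%. Mouse 13 (1.36%) and refed DT mouse 20 (1.59%) had the highest shares of mitochondrial counts, and mouse 20 had the highest summed immune markers, 437.9 CPM. Acinar markers varied within every group, with summed levels of 108 to 11831 CPM in fasted control, 86.9 to 16843 in fasted DT, 1119 to 19346 in refed control and 58.2 to 29693 in refed DT mice. Summed δ-cell markers were 19.996 to 77.1 CPM in fasted control, 12.9 to 46.2 in fasted DT, 36.9 to 83.7 in refed control and 4.05 to 29.4 in refed DT mice. These sums mix markers that went opposite ways with DT. Median Sst was 30.3, 0.0475, 55.99 and 0.0496 CPM in the same order of groups. Median Rbp4 was 13.6, 16.2, 9.27 and 18.05 CPM. The α-cell marker Gcg had medians of 77.4, 0.146, 158 and 0.461 CPM in that order. All 10 β-cell markers listed were tested and present. CPM here means the count relative to library size after trimmed-mean (TMM) scaling, which allows for a few genes taking much of a library.

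The main comparison asks how β-cell transcripts differ 2 h after food. Averaged over control and DT mice, 36 of the 39 genes rose with refeeding and 0 fell, by edgeR's quasi-likelihood test at an adjusted p below 0.05 over 14064 genes. By the same rule 17.2% of all genes rose and 21.7% fell. Their median log2 fold change was 0.64, against -0.06 for all genes. The increase was at least 1.5-fold for 23 genes and at least 2-fold for Rrp12, Bop1, Nop16 and Rrs1. Polr1c, Utp15 and Ddx10 did not pass.

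The same held in each treatment. In control mice 29 of 39 rose and 0 fell, where 10.9% of all genes rose and 12.3% fell. In DT mice 27 rose and 0 fell, where 10.8% of all genes rose and 13.5% fell. The medians were 0.59 and 0.56. These comparisons share no mice, but both come from 1 fit over all 22 libraries. They share its scaling and its estimate of the spread, so their calls are not independent. Both called the same 25 genes. Mybbp1a, Polr1b, Tcof1 and Utp20 passed in control mice alone, and Nhp2 and Wdr43 in DT mice alone. Another 5 (Nop14, Npm1, Pes1, Rrn3 and Rrs1) passed in the average but in neither treatment. A difference in the effect itself was tested as the interaction below. Across the 39 genes the 2 refeeding effects had a Pearson r of 0.77, a description of genes that share libraries and scaling. The median member of each library lay at log2 -0.06 to 0.06 of the fasted control mean in fasted control mice, 0.03 to 0.22 in fasted DT, 0.56 to 0.80 in refed control and 0.59 to 0.74 in refed DT mice. No refed library overlapped a fasted one by this median, but mouse 13 was set apart by other measures. Its TMM factor was 0.566, against 0.920 to 1.10 in the other 21 libraries, so its median of 0.59 rests on a large rescaling. It had 27 of the 39 genes above the fasted control mean, within the range of fasted DT mice (22 to 31), where the other refed mice had 36 to 39. Each log2 fold change compares RNA in a sorted population, in which a change per cell and a change in the mix of cells cannot be told apart.

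**Figure D1:**
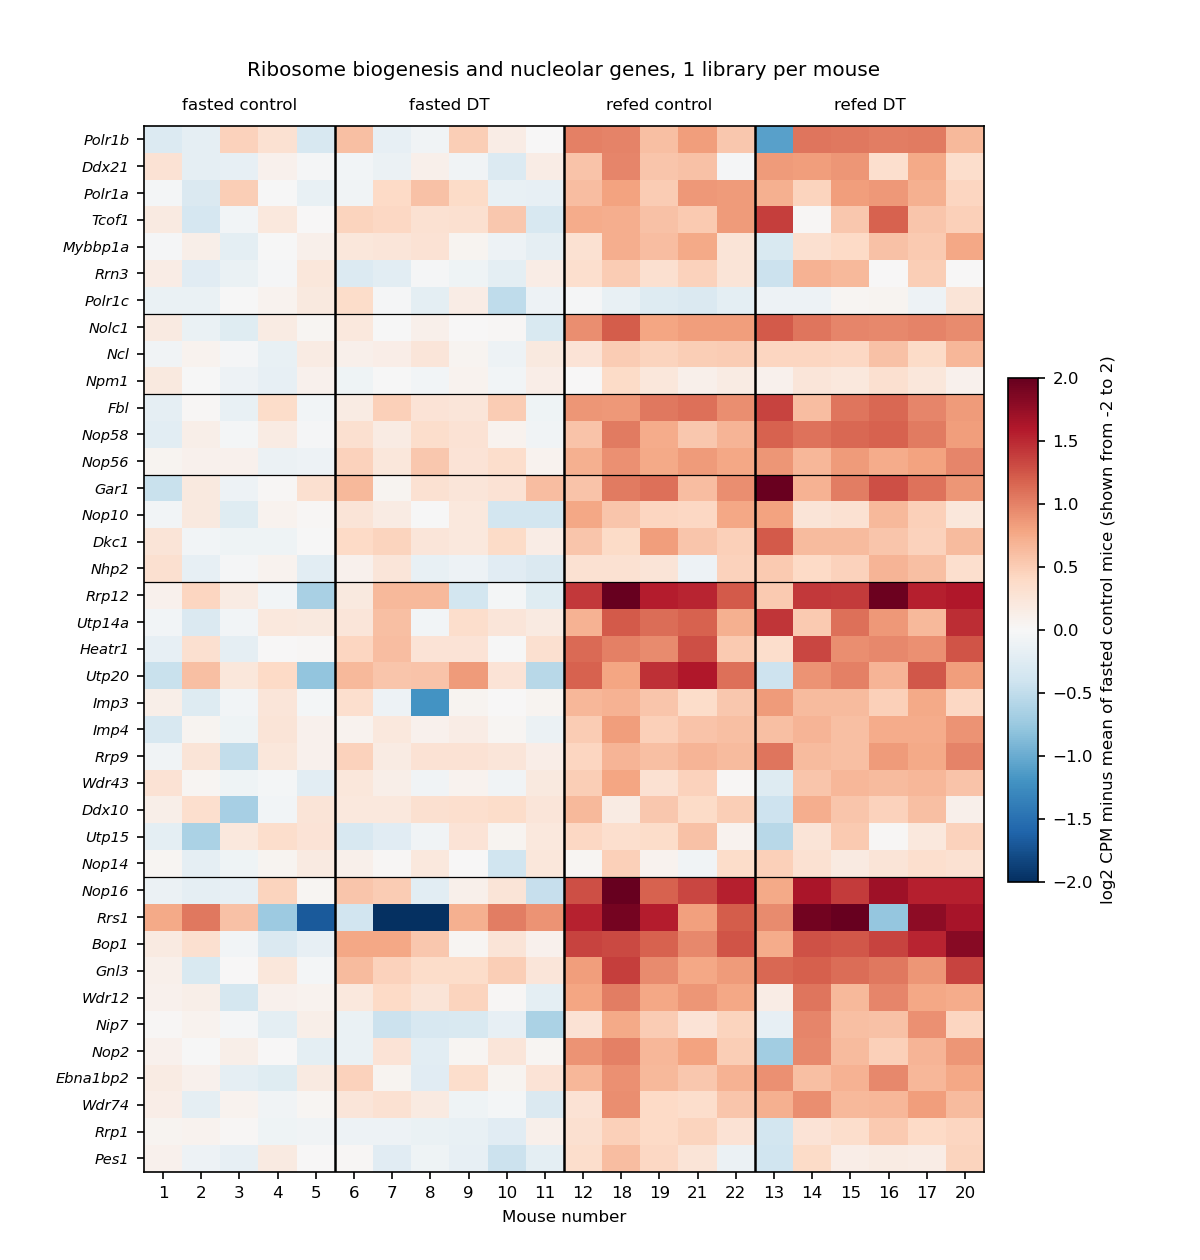
Level of each of the 39 genes (rows, in the order of their roles: Pol I transcription, phosphoproteins, box C/D, box H/ACA, small subunit, large subunit) in each mouse (columns), as log2 CPM minus the mean of the fasted control mice. Most cells of the 11 refed columns are red, while Polr1c stays pale and refed DT mouse 13 has 12 genes below the fasted control mean, lowest in Polr1b (-1.09), Nop2 (-0.69) and Utp15 (-0.56).

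**Figure D2:**
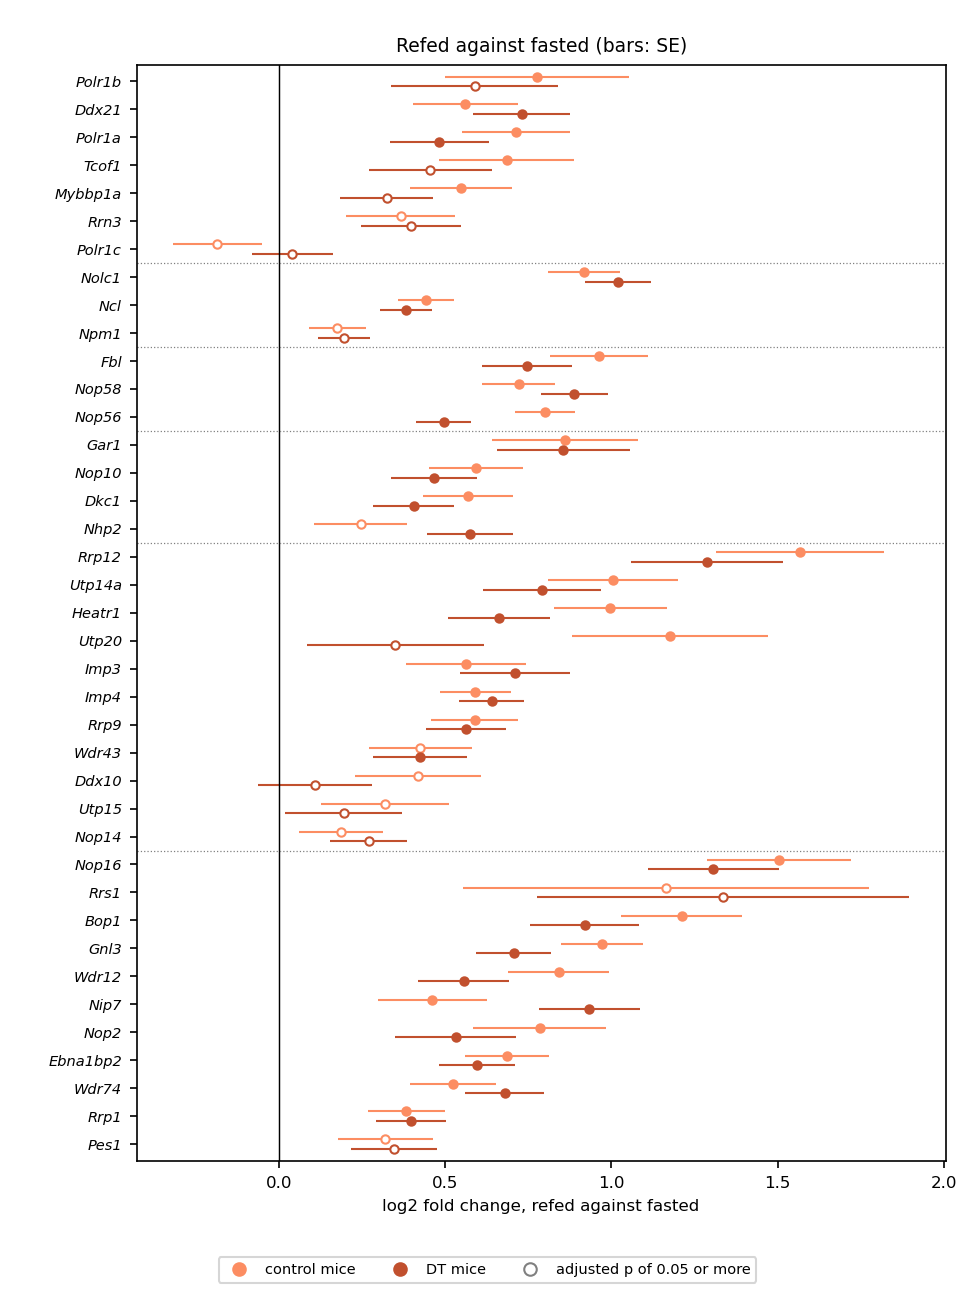
Log2 fold change of refed against fasted mice for each gene, in control and in DT mice, with bars of 1 SE; filled points have an adjusted p below 0.05. All but the Polr1c point of control mice lie above 0, and Rrp12 and Nop16 lie farthest right among the filled points.

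The box C/D snoRNP, which methylates rRNA, rose as a whole, 3 of 3 genes with a median log2 fold change of 0.80. Nop58, a core scaffold protein, stood at 24.5, 30.7, 27.7, 31.6 and 27.9 CPM in the fasted control mice, and at 42.2, 58.4, 47.5, 41.4 and 45.3 in the refed control mice. In fasted DT mice it ranged from 27.1 to 36.3 with a median of 33.2 CPM, and in refed DT mice from 50.8 to 64.4 with a median of 61.5. Every refed mouse was above every fasted mouse. The log2 fold change of Nop58 was 0.80 ± 0.07 (SE; edgeR adjusted p = 5.0e-08). Nop56, its partner in the scaffold, rose by 0.65 ± 0.06 (adjusted p = 6.6e-08), from 35.4 ± 2.46 CPM (SD, n = 5) in fasted control to 61.6 ± 3.50 (n = 5) in refed control mice. Fbl, the methyltransferase fibrillarin, rose by 0.85 ± 0.10 (adjusted p = 9.8e-07), from 7.79 ± 1.27 to 15.2 ± 1.09 CPM in the same groups. For all 3 genes no refed mouse overlapped a fasted one.

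The box H/ACA snoRNP, which converts uridine to pseudouridine, rose in 4 of 4 genes with a median of 0.51. Gar1, one of its small core proteins, had 2.80, 4.42, 3.59, 3.93 and 4.83 CPM in fasted control and 5.75, 8.00, 8.38, 5.99 and 7.45 CPM in refed control mice. The DT mice had, fasted, 3.99 to 6.11 CPM (median 4.75) and, refed, 6.27 to 15.4 (median 8.15). Within each treatment the fed states did not overlap for control mice or for DT mice, and the highest value, 15.4 CPM, was that of mouse 13. Gar1 rose by 0.86 ± 0.15 (edgeR adjusted p = 9.4e-05). Nop10 (0.53 ± 0.10), Dkc1, the pseudouridine synthase dyskerin (0.49 ± 0.09), and Nhp2 (0.41 ± 0.09) rose less.

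The nucleolar phosphoproteins differed widely among themselves, although 3 of 3 rose. Nolc1, a chaperone of snoRNPs and Pol I, had the smallest p of the 39 genes. Its fasted control mice had 43.6, 35.0, 32.4, 43.4 and 39.6 CPM, and its refed control mice 73.5, 89.1, 66.5, 68.5 and 68.7. Fasted DT mice had 31.3 to 44.8 CPM (median 38.9) and refed DT mice 74.4 to 90.7 (median 76.5). The lowest refed mouse, at 66.5 CPM, was above the highest fasted mouse, at 44.8 CPM. The log2 fold change was 0.97 ± 0.07 (edgeR adjusted p = 3.9e-09). Ncl (nucleolin), an abundant binder of nascent rRNA, rose by 0.41 ± 0.06, again with no overlap. Npm1 (nucleophosmin), a histone and ribosome chaperone, rose by 0.19 ± 0.06 (adjusted p = 0.015), the smallest called change. Its fasted control mice had 54.1, 47.2, 44.3, 42.5 and 50.2 CPM and its refed control mice 47.9, 61.7, 55.6, 50.95 and 53.03. The fed states of Npm1 overlapped, and neither treatment passed on its own.

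In Pol I transcription 6 of 7 genes rose, with a median of 0.57. Polr1b (0.68 ± 0.19) and Polr1a (0.60 ± 0.11), the 2 largest Pol I subunits, both rose. Ddx21, an RNA helicase of rRNA transcription and processing, had the smallest p of this role. It stood at 18.03, 13.1, 13.1, 15.7 and 14.5 CPM in fasted control and 22.1, 29.1, 21.8, 22.3 and 14.5 CPM in refed control mice. Fasted DT mice had 12.2 to 16.3 CPM (median 14.1) and refed DT mice 18.8 to 27.4 (median 25.8). Mouse 22 alone made the control groups overlap, and the DT groups did not. Ddx21 rose by 0.65 ± 0.11 (edgeR adjusted p = 6.2e-05). Tcof1 (treacle), which recruits Pol I factors, rose by 0.57 ± 0.14, and Mybbp1a, a nucleolar regulator, by 0.44 ± 0.10. Rrn3, the TIF-IA initiation factor that carries growth signals to Pol I, rose by 0.38 ± 0.11 (adjusted p = 0.0092). Polr1c, a subunit shared by Pol I and Pol III, was the exception. It had 16.97, 16.995, 18.4, 19.5 and 21.3 CPM in fasted control and 18.3, 16.8, 15.5, 15.2 and 16.3 in refed control mice. Values were 12.99 to 23.96 CPM in fasted DT mice and 17.3 to 22.1 in refed DT mice. The groups overlapped throughout, at a log2 fold change of -0.07 ± 0.09 (95% interval -0.26 to 0.11; adjusted p = 0.56).

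In the small subunit processome, the assembly that cleaves the precursor toward the 40S subunit, 9 of 11 genes rose, with a median of 0.62. Rrp12, a late export and maturation factor, had the largest change of the 39 genes. Fasted control mice had 12.2, 15.5, 12.8, 11.03 and 7.29 CPM, and refed control mice 30.6, 49.4, 34.0, 33.1 and 27.0. In DT mice the fasted values were 8.84 to 18.001 CPM (median 12.1) and the refed values 16.5 to 44.9 (median 32.2). The control groups were far apart, and mouse 13, at 16.5 CPM, was the 1 refed DT mouse inside the fasted range. Rrp12 rose by 1.43 ± 0.17 (edgeR adjusted p = 1.3e-06), or by 1.57 ± 0.25 in control and 1.29 ± 0.23 in DT mice. Imp4, which helps pair the U3 snoRNA with the precursor, had the smallest p of this role. It stood at 15.5, 20.2, 18.3, 23.1 and 20.7 CPM in fasted control and 27.6, 34.6, 26.9, 28.8 and 29.6 in refed control mice. With DT, fasted mice had 17.9 to 22.4 CPM (median 20.5) and refed mice 29.3 to 36.2 (median 31.7). No refed mouse overlapped a fasted one, and Imp4 rose by 0.62 ± 0.07 (adjusted p = 1.2e-06).

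Other genes of the small subunit processome followed by size. Utp14a, an activator of the helicase Dhx37, rose by 0.90 ± 0.13 and Heatr1, a Utp subunit also needed for Pol I transcription, by 0.83 ± 0.11. Utp20 rose by 0.76 ± 0.20, Imp3, an intronless partner of Imp4, by 0.64 ± 0.12, Rrp9, which binds U3, by 0.58 ± 0.09, Wdr43 by 0.43 ± 0.10 and Nop14 by 0.23 ± 0.09. Nop14 had an adjusted p of 0.038 and lost the call in 10 of the 22 fits that left out 1 library. Utp15 (0.26 ± 0.13, adjusted p = 0.12) and the helicase Ddx10 (0.26 ± 0.13, adjusted p = 0.11) did not pass. Without mouse 13 both passed, at 0.37 (adjusted p = 0.011) and 0.37 (adjusted p = 0.0080).

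All 11 genes of large subunit assembly, which mature the 60S particle, rose in the average over treatment, with a median of 0.70. Of these, Pes1 and Rrs1 passed in neither treatment alone. Nop16, a factor of early 60S particles, had the next largest change after Rrp12. Its fasted control mice had 6.22, 5.94, 5.99, 9.19 and 6.91 CPM and its refed control mice 16.6, 27.9, 15.4, 17.2 and 20.1. Among DT mice the fasted had 4.85 to 9.93 CPM (median 7.70) and the refed 11.5 to 22.1 (median 19.97). No refed mouse overlapped a fasted one, even mouse 13, the lowest refed mouse. The log2 fold change was 1.40 ± 0.15 (edgeR adjusted p = 2.4e-07). Gnl3 (nucleostemin), a GTPase of the nucleolus, had the smallest p of this role. It had 23.6, 17.9, 22.2, 25.7 and 21.5 CPM in fasted control and 39.4, 57.6, 42.7, 37.7 and 40.0 in refed control mice. Those of fasted DT mice were 26.1 to 34.0 CPM (median 29.4) and of refed DT mice 40.6 to 56.4 (median 48.5). Again no refed mouse overlapped a fasted one, at 0.84 ± 0.08 (adjusted p = 1.3e-07).

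The PeBoW complex, made of Pes1, Bop1 and Wdr12 and needed to process the 32S precursor, rose unevenly. Bop1 rose by 1.07 ± 0.12 (edgeR adjusted p = 8.3e-07), from 17.4 ± 3.07 CPM (SD, n = 5) in fasted control to 40.3 ± 4.22 (n = 5) in refed control mice. Wdr12 rose by 0.70 ± 0.10, and Pes1 by 0.33 ± 0.10 (adjusted p = 0.0086). Whether these 3 changes differ from one another was not tested. Rrs1, an intronless gene whose product brings the 5S particle into the 60S precursor, rose by 1.25 ± 0.41 (adjusted p = 0.021) with the widest error of the 39. Its fasted DT mice ranged from 1.22 to 13.03 CPM and its refed DT mice from 3.67 to 26.3, so the states overlapped. Nip7 (0.70 ± 0.11), the rRNA methyltransferase Nop2 (0.66 ± 0.14), Ebna1bp2 (0.64 ± 0.08), Wdr74 (0.60 ± 0.09) and Rrp1 (0.39 ± 0.08) also rose.

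**Figure D3:**
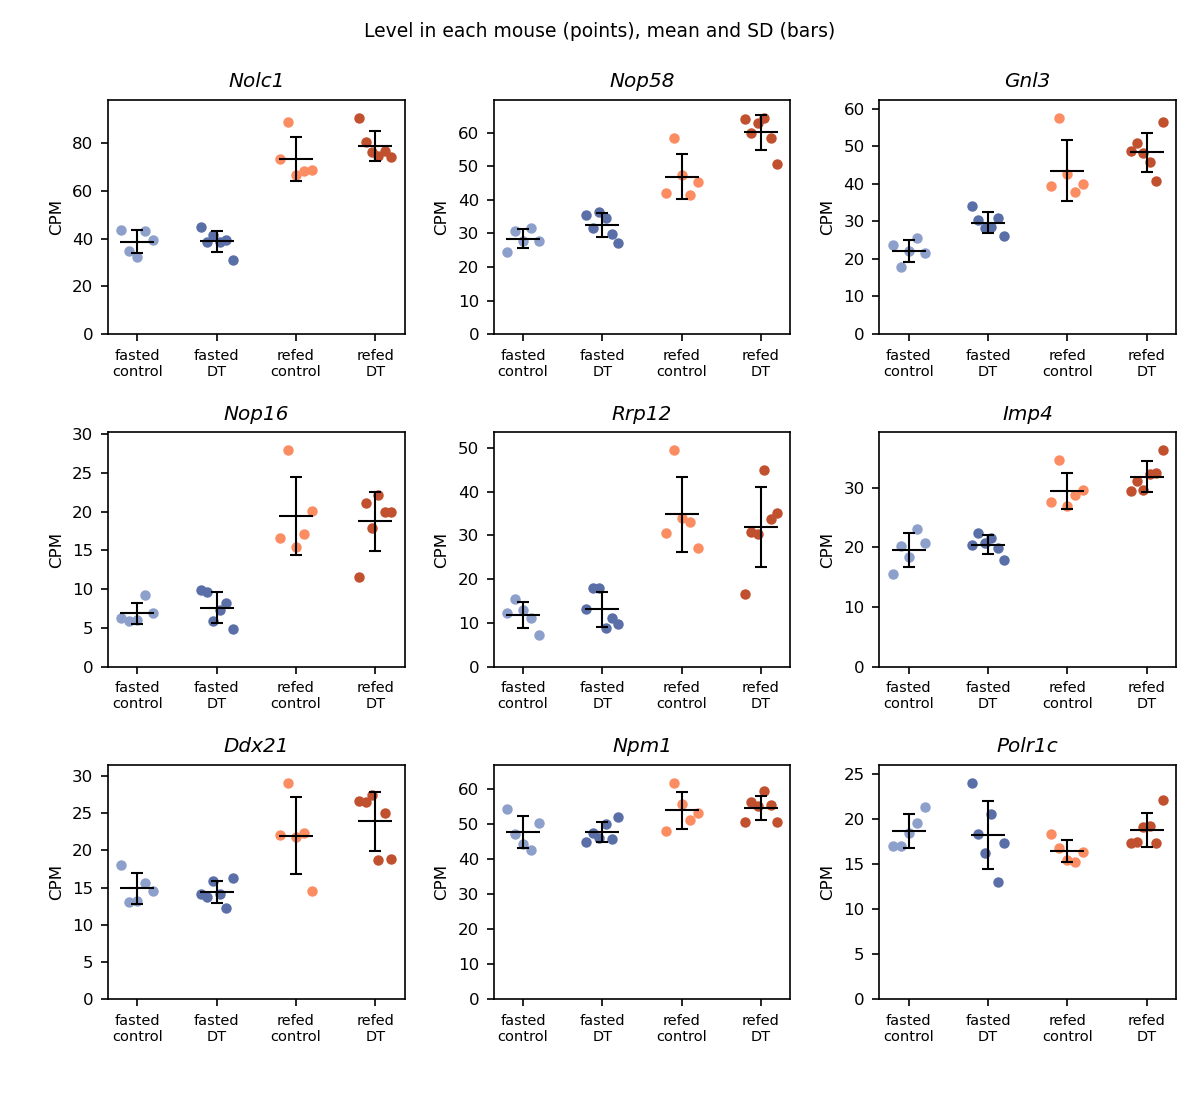
CPM of 9 genes in each mouse (points, ordered by mouse number) with the group mean and SD (bars; n = 5, 6, 5 and 6); each axis starts at 0. Refed points of Nolc1, Nop58, Gnl3, Nop16 and Imp4 lie above all fasted points, while those of Npm1 and Polr1c overlap them.

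By the strictest count, every refed mouse exceeded every fasted mouse for 10 of 39 genes (Ncl, Nolc1, Fbl, Nop56, Nop58, Imp3, Imp4, Nop16, Ebna1bp2 and Gnl3); 2.07% of all genes did so. Within control mice the count was 29 of 39 (10.4% of all genes), and within DT mice 16 of 39 (4% of all genes). Without mice 13 and 20 the test called 34 genes in control mice, 32 in DT mice and 38 in the average, with medians of 0.63, 0.67 and 0.68. Leaving out any 1 library left 25 of the 29 calls in control mice, 24 of the 27 in DT mice and 35 of the 36 in the average standing in every fit. In control mice the call of Nip7 was lost in 15 of the 22 fits, that of Polr1b in 9, of Imp3 in 5 and of Ddx21 in 1. In DT mice the calls of Nop2 and Wdr43 were lost in 8 fits each and that of Polr1a in 3.

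Acinar markers moved in the same direction: 9 of 9 tested markers had a log2 fold change above 0 with refeeding (median 1.19), and 0 of 9 passed. With the mean log2 CPM of the 9 tested markers as a covariate, 35 of 36 average calls were still made, with Nop14 lost. In that fit 26 of the 29 calls in control mice held (Imp3, Nip7 and Polr1b lost), as did 27 of 27 in DT mice. The median in the average was 0.61. The γ-cell markers Ppy (1.52 ± 0.53, adjusted p = 0.027) and Pyy (1.58 ± 0.43, adjusted p = 0.0063) rose as well, and their part in the result was not tested. Summed γ-cell markers were 14.04 to 121 CPM in fasted control, 6.71 to 26.6 in fasted DT, 36.0 to 258 in refed control and 18.5 to 86.8 in refed DT mice. Ins1 (0.09 ± 0.17) and Ins2 (0.10 ± 0.15) did not pass, and leaving them out of the table before scaling lost none of the calls.

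Other genes of the pathway, listed separately, rose less uniformly. Their counts stand beside 17.2% of all genes that rose and 21.7% that fell. Of 40 other small subunit factors 24 rose and 2 fell (median 0.35), those of smallest p being Pno1 (1.12 ± 0.10), Tsr1 (1.10 ± 0.12), Bysl (1.04 ± 0.12) and Utp4 (0.77 ± 0.09). Of 45 other large subunit factors 29 rose and 1 fell (median 0.44), those of smallest p being Gtpbp4 (0.68 ± 0.06), Bccip (0.46 ± 0.06), Ddx31 (0.72 ± 0.10) and Rsl24d1 (0.71 ± 0.10). Of 12 other snoRNP factors 8 rose and 0 fell (median 0.45), among them the assembly ATPases Ruvbl2 (0.56 ± 0.07) and Ruvbl1 (0.37 ± 0.09), the H/ACA chaperone Shq1 (0.87 ± 0.12) and Snu13 (0.50 ± 0.08). Of 15 tested genes of rRNA decay and trimming 4 rose and 1 fell, with Nol12 up (0.82 ± 0.09) and the exosome subunit Exosc5 down (-0.51 ± 0.10). Cytosolic ribosomal protein genes, the products' partners in the subunits, rose in 40 of 77 with 0 lower and a median of 0.24.

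The rest of the Pol I machinery went both ways. Of 12 genes 4 rose and 2 fell (median 0.15), where 17.2% of all genes rose and 21.7% fell. Polr1h (0.68 ± 0.10) and Polr1e (0.91 ± 0.21), both Pol I subunits, rose. Ubtf, which bends rDNA for Pol I, fell by 0.38 (SE 0.09, adjusted p = 0.0016), from 79.4 ± 6.11 CPM (SD, n = 5) in fasted control to 57.5 ± 7.35 (n = 5) in refed control mice. Taf1b, a part of the selectivity factor, fell by 0.62 (SE 0.13).

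Regulators of rRNA synthesis and growth more often fell than rose: of 25 tested 3 rose and 10 fell (median -0.32). All genes also fell (21.7%) more often than they rose (17.2%), and the lists below stand beside the same shares. Maf1, a repressor of Pol III, fell by 1.08 (SE 0.09, adjusted p = 6.6e-09), and the stress-induced mTORC1 inhibitors Sesn2 and Sesn1 fell by 1.18 (SE 0.11) and 0.72 (SE 0.10). Rheb, the GTPase that activates mTORC1, rose by 0.47 ± 0.06. The transcript of Myc, whose product binds E-boxes, stood at 3.36 ± 0.906 CPM (SD, n = 5) in fasted control and 2.19 ± 1.17 (n = 5) in refed control mice and did not pass. Among p53 targets, a pathway that responds to nucleolar stress, 2 of 12 rose, near the share of all genes, and 5 fell. Trp53inp1 had a log2 fold change of -2.31 ± 0.18, Bbc3 of -1.44 ± 0.33, Aen of 1.08 ± 0.15 and Zmat3 of 0.97 ± 0.20. Of 16 proliferation genes 1 rose and 11 fell (median -1.23), Ccnb2 (-1.71 ± 0.33), Birc5 (-1.80 ± 0.43), Rrm2 (-1.25 ± 0.32) and Mki67 (-1.27 ± 0.38) having the smallest p.

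**Figure D4:**
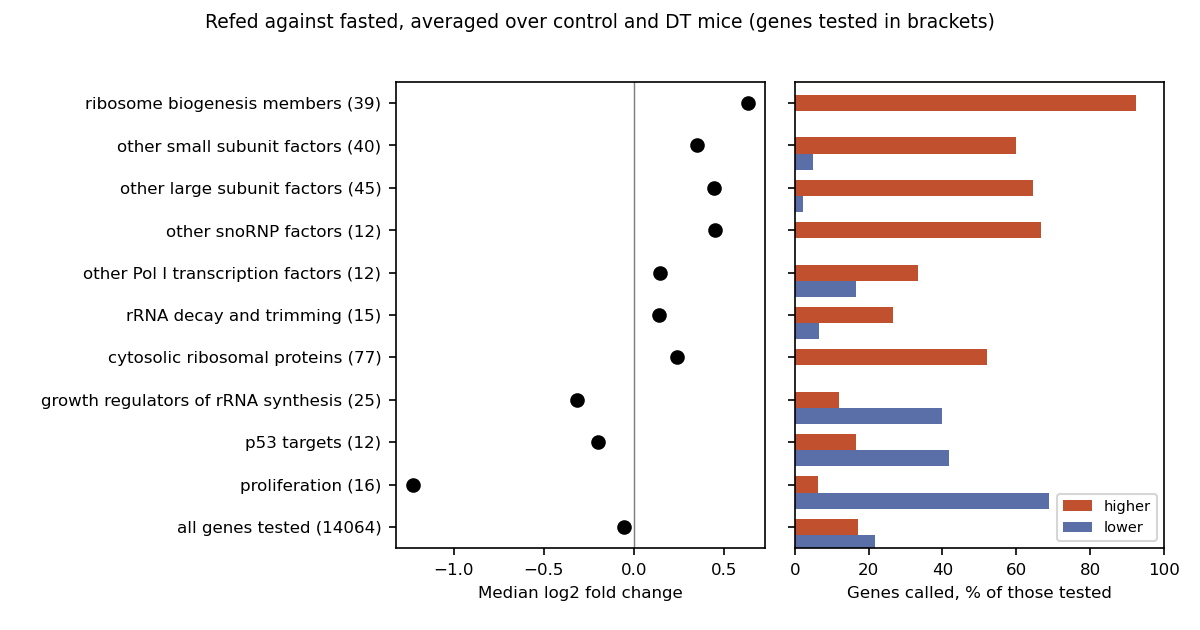
Median log2 fold change (left) and percent of tested genes called higher or lower (right) for refed against fasted mice, averaged over treatment, in the 39 genes and in other lists, with the number tested in brackets. Among the lists plotted, which leave out the cell type markers, the 39 genes have the highest median, 0.64, and proliferation genes the lowest, -1.23.

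The other question of the design is whether islets without α-, δ- and γ-cells change these genes in β-cells. In fasted mice 0 of the 39 genes passed by edgeR, as did 0.0284% of all genes in either direction. In refed mice 0 passed (0.0356% of all genes), and averaged over feeding 0 passed (0.206% of all genes). At an unadjusted p below 0.05 the counts were 5, 1 and 7 of 39 (12.8%, 2.56% and 17.9%), against 8.33%, 10% and 11.9% of all genes. Of these, 4, 1 and 7 were higher with DT (10.3%, 2.56% and 17.9% of the 39). Among all genes 5.13%, 5.63% and 6.87% were higher at that level. DESeq2 and limma voom also called 0 in each, with 5, 2 and 7 at an unadjusted p below 0.05 in both. The median log2 fold changes were 0.10 in fasted mice, 0.05 in refed mice and 0.07 in the average. These tests do not show equality: the 95% interval lay within 2-fold either way for 38 of 39 genes in fasted mice (all but Rrs1) and 37 in refed mice (all but Utp20 and Rrs1), and within 1.5-fold for 27 and 34.

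**Figure D5:**
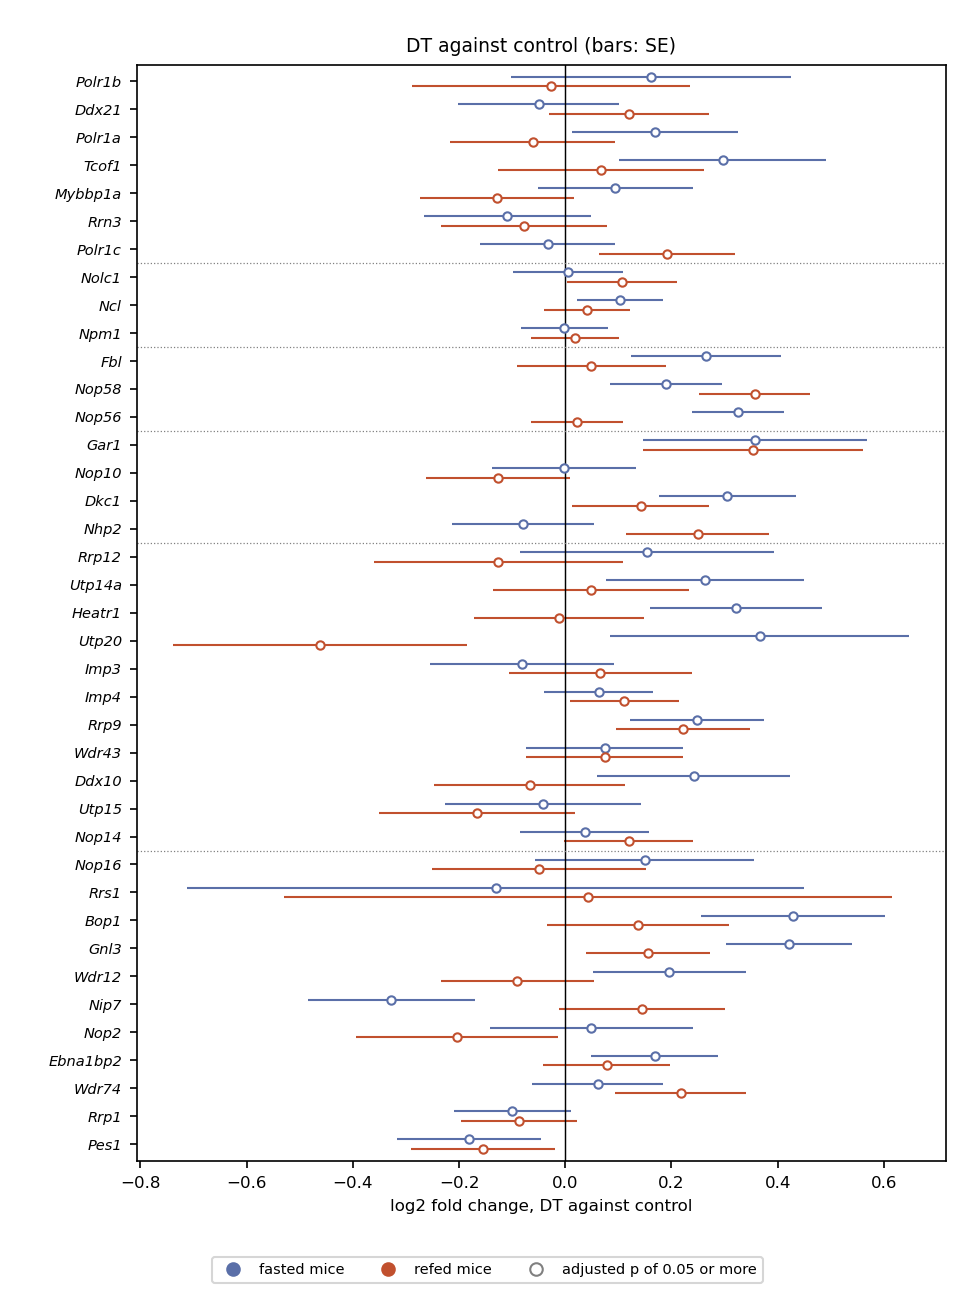
Log2 fold change of DT against control mice for each gene, in fasted and in refed mice, with bars of 1 SE; all points are open because 0 genes had an adjusted p below 0.05. Most points lie within 0.3 of 0, and in fasted mice Bop1, Gnl3, Utp20, Gar1 and Nop56 lie farthest right.

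The smallest p-values with DT were those of box C/D scaffold proteins and of Gnl3. In fasted mice Gnl3, with the values above, was the 1 gene of 39 in which every DT mouse exceeded every control mouse (1.1% of all genes did so), by 0.42 ± 0.12 (unadjusted p = 0.0018, edgeR adjusted p = 0.30). Nop56 had 36.5, 37.3, 37.6, 32.7 and 32.7 CPM in fasted control mice and 37.0 to 51.5 (median 43.8) in fasted DT mice. One DT mouse lay within the control range of Nop56, whose log2 difference was 0.33 ± 0.09 (unadjusted p = 0.0012, adjusted p = 0.28). Bop1 (0.43 ± 0.17), Dkc1 (0.30 ± 0.13) and Nip7 (-0.33 ± 0.16) also had an unadjusted p below 0.05 there. In refed mice Nop58 did, by 0.36 ± 0.11 (unadjusted p = 0.0026, adjusted p = 0.24), and its 2 groups overlapped only at refed control mouse 18. Averaged over feeding, Nop58 (0.27 ± 0.07, adjusted p = 0.13) and Gnl3 (0.29 ± 0.08, adjusted p = 0.16) had the smallest p. Without refed control mouse 18, Gnl3 passed, at 0.35 (adjusted p = 0.049), and Nop58 was at 0.32 (adjusted p = 0.060).

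The interaction tests whether refeeding acted differently in DT mice, and 0 of 39 genes passed by edgeR (0.00711% of all genes), with 3 of 39 at an unadjusted p below 0.05 (7.14% of all genes). DESeq2 and limma voom called 0, with 3 each at that level. The median difference was -0.09, and refeeding had the larger effect in control mice for 24 of 39 genes. Nop56 rose by 0.80 ± 0.09 in control and 0.50 ± 0.08 in DT mice, a difference of -0.30 ± 0.12 (unadjusted p = 0.021, adjusted p = 0.61). Nip7, a factor of 60S maturation, had 14.4, 14.8, 13.9, 12.4 and 15.2 CPM in fasted control and 17.3, 23.8, 20.1, 17.01 and 19.2 in refed control mice. Its fasted DT mice had 9.06 to 12.9 CPM (median 11.3) and its refed DT mice 12.6 to 28.0 (median 21.3). The log2 fold change was 0.46 ± 0.16 in control mice, the call lost in 15 of 22 fits above, and 0.93 ± 0.15 in DT mice, a difference of 0.47 ± 0.22 (unadjusted p = 0.046, adjusted p = 0.69).

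Utp20, a very large scaffold of the small subunit processome, showed the widest contrast. It had 5.54, 11.6, 8.87, 10.04 and 4.33 CPM in fasted control and 17.4, 13.1, 21.1, 23.2 and 16.3 in refed control mice, which did not overlap. Fasted DT mice had 5.14 to 13.7 CPM (median 11.2) and refed DT mice 5.67 to 18.1 (median 13.96), which did. The rise was 1.18 ± 0.29 in control mice and 0.35 ± 0.27 in DT mice (adjusted p = 0.37), and the difference was -0.83 ± 0.39 (unadjusted p = 0.048, edgeR adjusted p = 0.69). Mouse 13 had the lowest refed value, and without it the effect of refeeding in DT mice was 0.57 (adjusted p = 0.077) and the difference -0.64 (adjusted p = 0.56).

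Overlapping genes limit the counting, since whether it used strand is not given in the sources used here. Exons of 15 of the 39 genes overlap a gene on the opposite strand. The shared part was largest for Utp14a (11.5% of exon length), Nop14 (5.27%), Pes1 (4.56%) and Nhp2 (3.84%). For 5 of the 15 the partner had the higher median count, and the partners of Utp14a and Wdr43 were not matched to a row of counts. These were Nhp2 (179.5 counts, against 726.5 for Rmnd5b), Bop1 (527 against 1635.5 for Mroh1), Gnl3 (637.5 against 1850.5 for Pbrm1), Heatr1 (423.5 against 870 for Lgals8) and Nop56 (959 against 1111 for Idh3b). The shared part was 1.98% of exon length for Heatr1, 1.69% for Bop1, 0.25% for Gnl3 and 0.12% for Nop56. Gnl3 has a related expressed gene, Gnl3l, found by its name. The same search by name found no copy of Npm1, and copies under other names were not searched for. Reads of near-identical copies could be lost or split, but the likeness of sequences was not measured for either gene.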

How the data were processed

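The authors deposited read counts per gene, whole numbers with 1 column per mouse. The submitters' processing notes name the build GRCm38.p6, the aligner STAR (2.7.2b), HTSeq (0.9.1) and DESeq2 (1.28.1). Parameters, strand setting and annotation release are not given in the sources used here. Per the labels, RNA from sorted cells was amplified by a SMARTer low-input kit and sequenced as Nextera XT libraries, so amplification noise is part of the error. The table has 0 columns of no sample.

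Counts were tested with edgeR 4.0.16 in R 4.3.3 (TMM scaling, filterByExpr by group, robust quasi-likelihood fit over all 22 libraries, 1 coefficient per group), which left 14064 genes. The 7 comparisons were refed against fasted and DT against control (each within the other factor's levels and averaged) and the interaction. Adjusted p-values are Benjamini-Hochberg over all genes tested, threshold 0.05. The ± after a log2 fold change is an SE derived from the test. It is the absolute log2 fold change divided by the square root of the F statistic. The 95% intervals use this SE with a t quantile. Plotted log2 CPM used a prior count of 2. The common biological coefficient of variation was 0.37. Every mouse number occurs once, so libraries are separate mice, and no label gives a batch. Fasted mice were numbered 1 to 11 and refed mice 12 to 22. Whether the numbers follow the order of handling is not stated. If they do, order and refeeding cannot be told apart.

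In simulated counts of the comparison of refed with fasted control mice (13801 genes), the test recovered 8.96% of 1.5-fold, 49.2% of 2-fold and 89.4% of 4-fold changes; for DT against control in fasted mice (13795 genes) it recovered 16.4%, 44.8% and 77.3%. These rates are over genes in general, and the 39 genes have a smaller median SE than all genes tested. The 1.5-fold, 2-fold and 4-fold changes were given to 67, 67 and 66 genes. In the data 23.3% of all genes were called for refeeding in control mice. The Benjamini-Hochberg cutoff depends on how many genes change, so recovery of refeeding effects at that share was not tested.

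The members and lists were chosen with earlier results of these data known. Named were all 39 by role, with levels per mouse for the member of smallest p in each role and for members the comparisons turn on, up to 4 genes of smallest p in other lists, and Ins1 and Ins2. Rrp12, Nop16, Polr1c, Npm1, Nip7, Utp20, Ubtf and the Pyy, Ppy and Myc values were given in more detail after their values were seen. Positions are from GENCODE vM21 and promoters from RefSeq, both GRCm38. Alternatives were DESeq2 size factors, DESeq2 1.42.0, limma voom 3.58.1, no filter, a mean of at least 1 CPM, only the 2 groups compared, no insulin genes, no mice 13 and 20, an acinar covariate, and each library left out in turn.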

Additional observations from a re-analysis of the deposited data

Results flagged for a closer look

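Of 156 combinations of a gene and a group, 10 held 1 mouse far from the rest of its group by Dixon's gap criterion, which chance meets in about 1 in 20 groups. Refed DT mouse 13 accounted for 5: Polr1b was low at 6.40 CPM (next 21.6), Wdr43 low at 29.2 (next 51.2), Rrp1 low at 82.1 (next 128), Dkc1 high at 31.3 (next 20.6) and Gar1 high at 15.4 (next 9.52). Fasted DT mouse 11 was low in Tcof1 at 11.4 CPM (next 17.5) and high in Rrp1 at 113 (next 98.5). Fasted control mouse 1 was high in Dkc1 at 15.9 CPM (next 13.2), and fasted control mouse 3 was low in Wdr12 at 13.4 (next 18.04). Refed control mouse 18 was high in Gnl3 at 57.6 CPM (next 42.7).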

How the results depend on the processing

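No paired analysis was possible because every mouse number occurs once, so the groups share no replicate number. Counts of genes called after refeeding ranged from 25 to 33 (control mice), 25 to 32 (DT mice) and 35 to 38 (average) with 1 library left out, and from 26 to 34, 23 to 34 and 35 to 38 under the other alternatives; 0 calls reversed direction. The median in control mice ranged from 0.57 to 0.68 with 1 library left out, reaching 0.68 without fasted control mouse 4, and the median in DT mice was 0.67 without refed DT mice 13 and 20; the cause was not tested. The count called for DT against control averaged over feeding ranged from 0 to 1, and was 1 (Gnl3) without refed control mouse 18. The other DT and interaction counts were 0 under every alternative run. With the 2 groups alone, Dkc1, Nop2, Rrp1 and Wdr43 lost the call in DT mice, and with no filter Nip7 and Polr1b lost it in control mice and Nop14 in the average. The median SE of the 39 genes was 0.15 for refeeding in control mice and 0.14 in DT mice (0.24 in control mice over all genes), which limits what a missed threshold shows for the smaller effects.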
